A study of Homo sapiens with 9 samples.

Results

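The integrin and laminin genes were followed across 9 RNA sequencing libraries of EPC2, a human esophageal cell line that the labels call normal squamous epithelium. The members are the 37 protein-coding genes whose symbols name an integrin subunit (26 genes) or a laminin chain (11 genes). They were taken by symbol and fill 38 of the 64253 entries of the count table, because ITGB3 is listed under a pair of identifiers. Untreated cells, cells given an empty vector with the lipid reagent Lipofectamine 2000, and cells given a plasmid carrying FOXF1, a forkhead transcription factor, contributed 3 libraries each, described as biological triplicates. All 3 groups are the same line in the same medium. The empty vector and FOXF1 groups share the transfection itself, so the empty vector is the matched control for FOXF1 and the untreated cells show what transfection alone moved. No source used here gives the time after transfection or the share of cells that took up DNA.

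Integrins are receptors made of an alpha and a beta subunit that span the plasma membrane and tie the extracellular matrix to the actin or keratin skeleton. Laminins are cross-shaped or rod-shaped trimers of an alpha, a beta and a gamma chain that build the basement membrane, the sheet of matrix on which epithelium rests. Basal cells of stratified squamous epithelium hold on to that sheet with hemidesmosomes, where the integrin of ITGA6 and ITGB4 binds the laminin that contains the LAMA3 and LAMB3 chains, and with focal contacts that carry ITGB1 integrins. Not every chain of that laminin is analysed here.

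FOXF1 was read 367, 184 and 141 times in the FOXF1 plasmid libraries, 0 to 1 times in the untreated libraries, and 0, 0 and 6 times in the empty vector libraries, which follows the labels. Library totals ran from 34390666 to 39973289 counts, so that a gene without reads may still stand at as much as 0.0751 to 0.0872 CPM (counts scaled to the size of the library), with 3 reads as the limit and counting error only. This limit uses the plain totals, whereas the levels below use totals multiplied by scaling factors (TMM) of 0.880 to 1.12. On the latter scale FOXF1 stood at 9.12, 5.41 and 3.76 CPM in FOXF1 plasmid replicates 1, 2 and 3. The share of counts from mitochondrially encoded genes was 18.6 to 22.4% in untreated cells, 10.3 to 11.7% with the empty vector and 13.7 to 14.7% with the FOXF1 plasmid. The labelled cell type was not borne out by its markers: 0 of 8 basal and 0 of 6 differentiating squamous markers reached a mean of 1 CPM, and TP63, SOX2, CRNN, SPRR1B and SPRR3 had no read in any library. Their summed level was 0.539 to 0.881 CPM in untreated cells, 0.558 to 0.656 CPM with the empty vector and 0.745 to 1.25 CPM with the FOXF1 plasmid for the basal list, and at most 0.113 CPM in any library for the differentiating list. The cells are therefore called EPC2 below, with no claim to a squamous state.

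Promoter sequence was available from RefSeq (GRCh38.p14, 250 bases before to 50 bases after an annotated start) for 26 of the 37 members, in 33 windows. The AP-1 element TGAGTCA, recognised by FOS and JUN dimers and searched on both strands (TGACTCA is the same element read on the other strand), occurred in 3 of these windows, those of ITGA5, LAMA3 and LAMB3, and in 4.95% of all 35116 windows. The forkhead core TGTTTAC or TGTTTGC, of the kind bound by FOXF1 and its relatives, occurred in 1 member window, that of ITGA2, and in 7.17% of all windows. The stretches of 250 bases before the start are shown for LAMB3, which had the largest change of all members, for LAMA3, its partner chain in the same laminin, and for ITGA2, the member with the forkhead match. Capitals mark the matches. The LAMB3 stretch is chr1:209651375-209651624 on the minus strand, with its AP-1 match starting 67 bases before this start. The LAMA3 stretch is chr18:23872770-23873019 on the plus strand, with AP-1 matches starting 125 and 69 bases before the start. The ITGA2 stretch is chr5:52989102-52989351 on the plus strand, with the forkhead match starting 91 bases before the start.
LAMB3: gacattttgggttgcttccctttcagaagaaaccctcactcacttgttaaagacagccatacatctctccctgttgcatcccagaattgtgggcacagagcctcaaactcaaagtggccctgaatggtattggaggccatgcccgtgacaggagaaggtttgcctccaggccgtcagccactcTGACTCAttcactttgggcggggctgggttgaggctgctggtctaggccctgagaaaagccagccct
LAMA3: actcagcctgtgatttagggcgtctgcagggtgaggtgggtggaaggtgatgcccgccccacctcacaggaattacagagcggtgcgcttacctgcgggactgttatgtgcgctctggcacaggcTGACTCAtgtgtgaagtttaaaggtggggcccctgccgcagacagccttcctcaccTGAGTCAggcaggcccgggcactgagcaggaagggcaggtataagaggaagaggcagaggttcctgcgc
ITGA2: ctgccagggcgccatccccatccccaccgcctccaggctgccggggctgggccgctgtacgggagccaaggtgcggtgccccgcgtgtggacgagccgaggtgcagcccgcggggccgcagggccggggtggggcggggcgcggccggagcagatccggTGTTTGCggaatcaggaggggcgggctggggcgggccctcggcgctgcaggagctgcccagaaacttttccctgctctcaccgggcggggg
LAMB3 and LAMA3 thus carry the AP-1 letters 67 and 69 bases before an annotated start, while the ITGA2 stretch is rich in G and C and has no AP-1 match. LAMB3 has 2 further annotated starts whose windows hold no AP-1 match. The LAMA3 start shown lies inside the gene, which begins at position 23689443, where no window was available. A match in letters describes the sequence and shows no binding.

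Of the 37 members, 28 passed the filter on low counts and were tested, 19 integrin subunits and 9 laminin chains. The other 9 were at or near 0. ITGA8, an alpha subunit of mesenchyme, had 0 reads in all 9 libraries. ITGAD, ITGAM and ITGAL, alpha subunits of leukocytes, had 0 to 2, 0 to 2 and 1 to 8 reads per library. ITGB6 and ITGB7, the beta subunits of epithelial repair and of gut-homing lymphocytes, had 0 to 2 and 0 to 6 reads. ITGA9 had 0 to 14 reads, LAMA2, the alpha chain of muscle basement membrane, had 1 to 7 reads, and LAMB4 had 1 read in total.

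In untreated EPC2 a few members held most of the integrin and laminin signal. Compared per kilobase of exon, the alpha subunits ITGA3 and ITGA5 stood highest, at 99.8 ± 6.38 and 85.0 ± 6.40 CPM per kb (SD, n = 3). ITGA3 pairs with ITGB1 as a laminin receptor, and ITGA5 pairs with ITGB1 as the classical fibronectin receptor. Together they made up 91.7% of the summed level per kb of all alpha subunits. LAMB2, a beta chain of vascular, kidney and neuromuscular basement membranes, followed at 55.4 ± 1.59 CPM per kb, and LAMA5, the widespread alpha chain of epithelial basement membranes, at 36.9 ± 1.55 CPM per kb. These 4 levels did not overlap between neighbours in the order, although the lowest ITGA3 library, at 92.4 CPM per kb, was close to the highest ITGA5 library, at 92.2 CPM per kb.

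ITGB5, the beta partner of ITGAV in vitronectin binding, was the highest beta subunit at 18.3 ± 1.45 CPM per kb. LAMC1, the common gamma chain, followed at 16.1 ± 0.184 CPM per kb, and its highest library, at 16.3 CPM per kb, lay just below the lowest ITGB5 library, at 16.8 CPM per kb. ITGB4 of the hemidesmosome and ITGB1, the partner of most alpha subunits, came next at 10.1 ± 0.429 and 9.08 ± 0.674 CPM per kb, and their libraries overlapped. LAMB1 stood at 6.72 ± 0.404 CPM per kb. ITGA7, ITGA2B and LAMC3 lay between 3.57 and 4.40 CPM per kb in all 3 untreated libraries, where the range of LAMC3 took in those of the other two. LAMB3, ITGB2, ITGA10 and ITGA11 lay between 1.63 and 2.30 CPM per kb, with overlapping libraries. All other tested members had means from 0.0320 CPM per kb (ITGA1) to 1.63 CPM per kb (ITGA6).

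**Figure D1:**
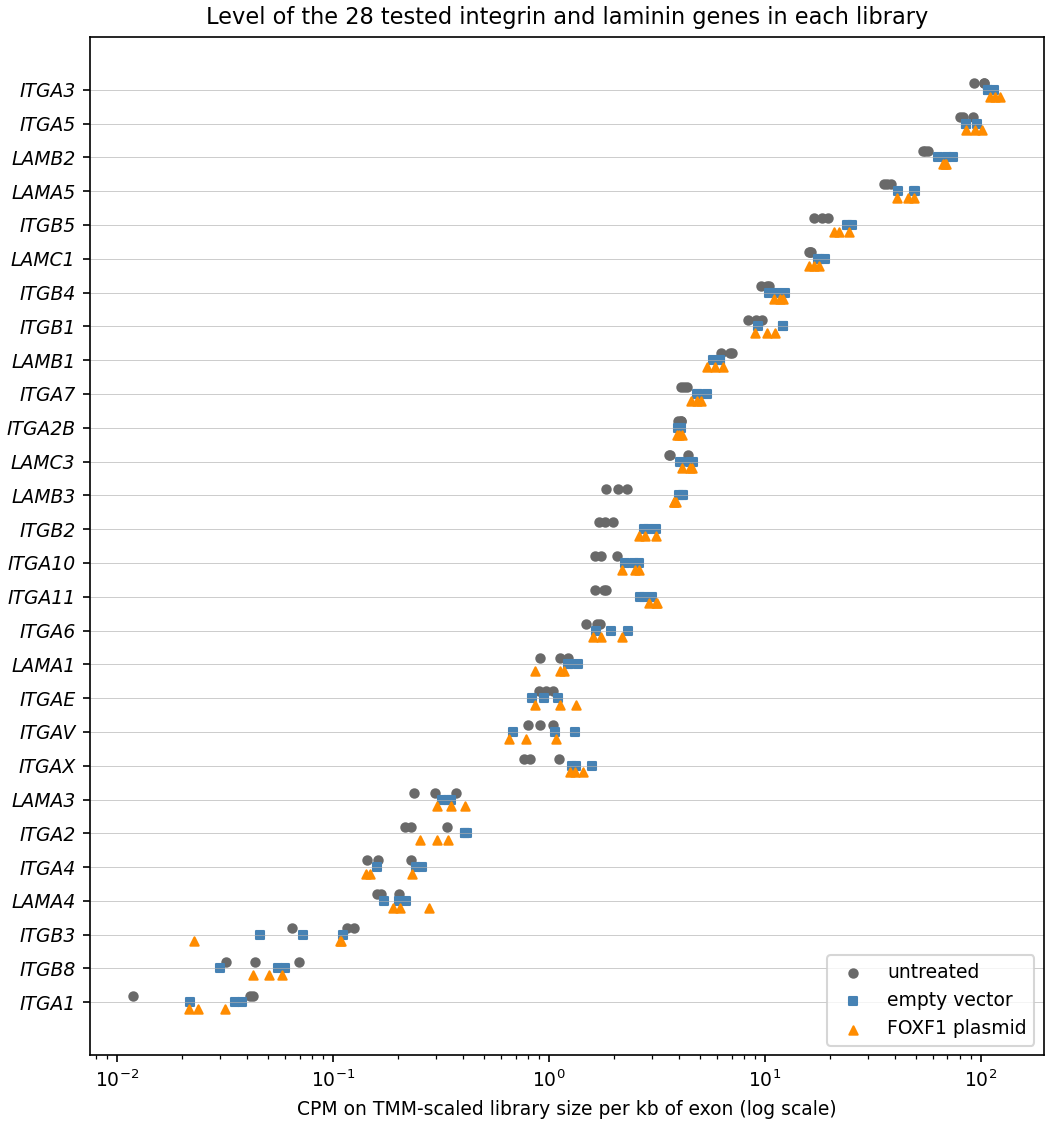
Level of each of the 28 tested members in each library, in CPM on TMM-scaled library size per kilobase of exon on a log axis, ordered by the untreated mean; circles are untreated, squares empty vector and triangles FOXF1 plasmid libraries. ITGA3, ITGA5, LAMB2 and LAMA5 stand at the top in all 3 groups, and the empty vector and FOXF1 points of LAMB3 sit to the right of its untreated points.

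The summed alpha subunits exceeded the summed beta subunits, at 201.5 ± 10.2 against 39.5 ± 2.13 CPM per kb in untreated cells, and ITGA3 alone stood at 11.0 times the level per kb of ITGB1, with which it pairs. Within the laminins, LAMA5 made up 95.9% of the summed alpha chains per kb and LAMB2 made up 86.3% of the summed beta chains per kb. In the hemidesmosome pair, ITGB4 stood at 6.21 times the level per kb of ITGA6. Level per kb followed GC content across the 28 tested members (Spearman rho 0.604, n = 28 genes measured in the same libraries). The part of GC content in these levels was not tested. With the longest transcript as the length in place of all exons, 9 of the 10 highest members stayed among the 10 highest.

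The empty vector was compared with untreated cells to see what transfection alone changed. Of the 28 tested members, 12 rose and 0 fell (edgeR quasi-likelihood test, adjusted p below 0.05 over all 16366 genes tested). Among all genes tested, 10.2% were called higher and 9.37% lower. The median log2 fold change was 0.21 over the members and 0.04 over all genes. The 12 are LAMB3, ITGA11, ITGB2, ITGA2, ITGAX, ITGA10, ITGB5, LAMA5, LAMB2, ITGB1, ITGA7 and LAMC1, with log2 fold changes from 0.98 to 0.18. They make up 8 of 19 integrin subunits and 4 of 9 laminin chains. In these bulk libraries, a change in the share of cells of a kind and a change in RNA per cell cannot be told apart. The mitochondrial share given above moved with transfection, and its part in these changes was not tested. Scaled by library totals alone, which puts the median of all genes at 0.29 in place of 0.04, 19 members were called higher and 0 lower, beside 35.0% of all genes called higher and 2.07% lower.

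**Figure D2:**
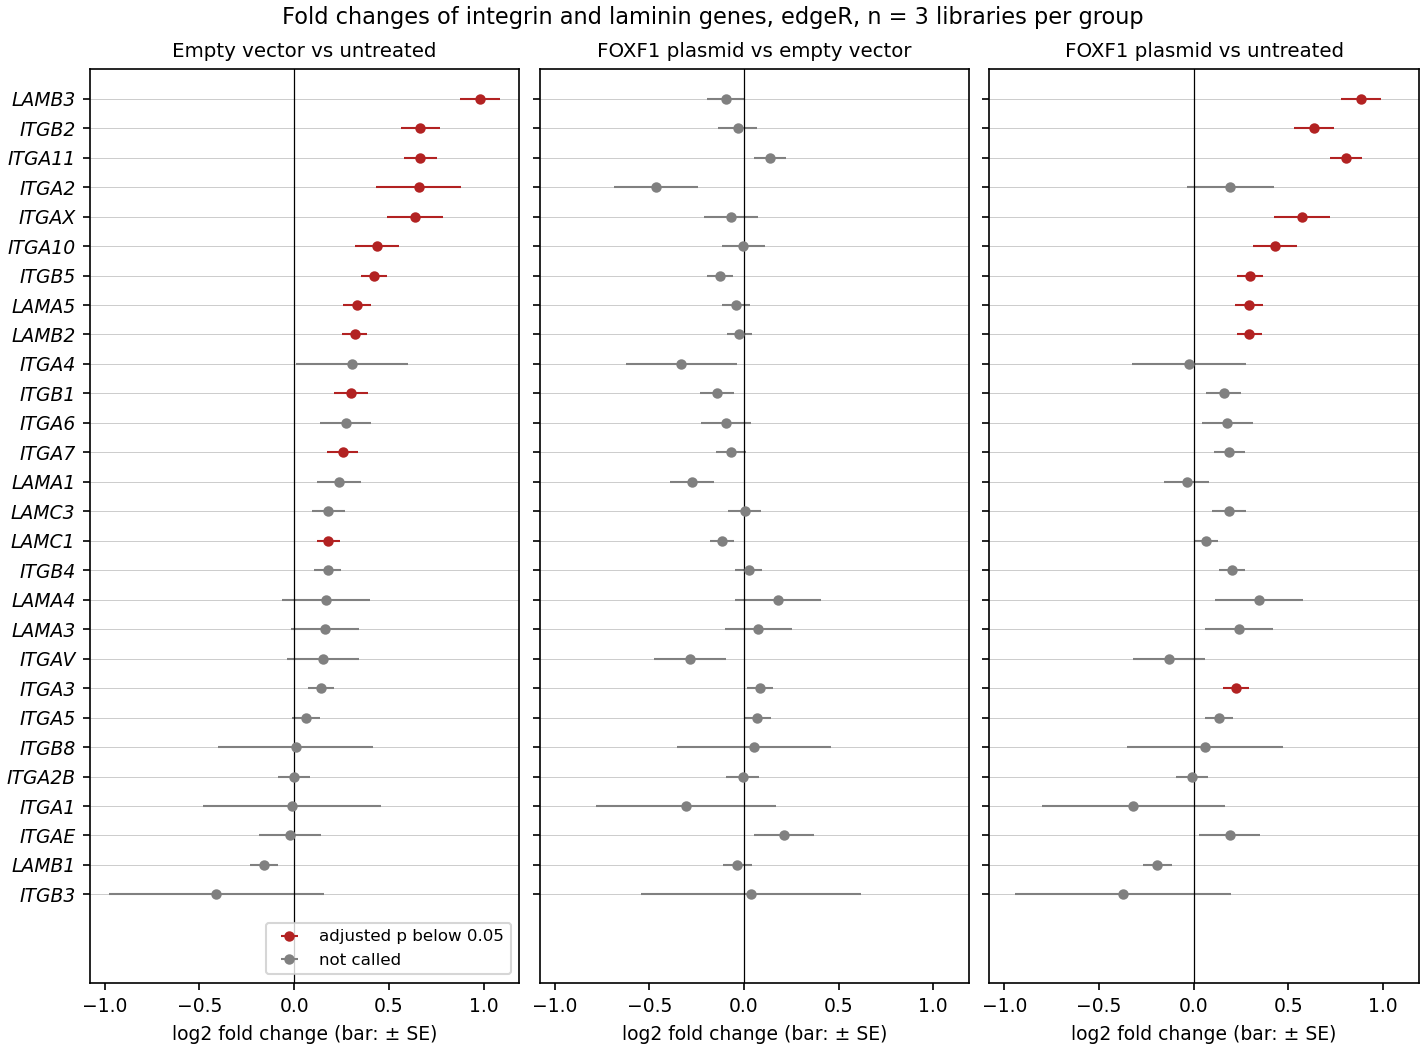
Log2 fold change with its approximate SE for the 28 tested members in the 3 comparisons (3 libraries per group), ordered by the change with the empty vector; red marks an adjusted p below 0.05. Of the members, 12 are red in the left panel, 0 in the middle panel and 9 in the right panel, all to the right of 0.

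Among the laminin beta chains, LAMB3 (ENSG00000196878, chromosome 1, 209614870 to 209652466, minus strand, GRCh38), the chain of the hemidesmosomal laminin, had the largest change of all members. It stood at 9.78, 8.60 and 10.8 CPM in untreated replicates 1, 2 and 3, at 18.8, 19.5 and 19.3 CPM with the empty vector, and at 18.2, 17.9 and 17.8 CPM with the FOXF1 plasmid. Every transfected library lay above every untreated library, and the FOXF1 libraries lay just below those of the empty vector. The empty vector raised LAMB3 by 0.98 ± 0.11 (log2 fold change ± SE, adjusted p = 8.31e-08), or 1.97-fold. The call held in all 18 alternative settings, with log2 fold changes from 0.89 to 1.22.

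LAMB2 (ENSG00000172037, chromosome 3, 49121114 to 49133118, minus strand) was the beta chain with the highest level. It was measured at 380, 370 and 392 CPM in untreated cells, at 512, 478 and 435 CPM with the empty vector, and at 472, 470 and 458 CPM with the FOXF1 plasmid. No untreated library reached a transfected library. The rise with the empty vector was 0.32 ± 0.07 (adjusted p = 0.00069), or 1.25-fold.

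LAMB1, the beta chain of most embryonic and many adult laminins, moved the other way without being called. Its libraries stood at 57.2, 55.9 and 51.0 CPM untreated, at 46.6, 50.1 and 50.3 CPM with the empty vector, and at 51.8, 47.9 and 43.8 CPM with the FOXF1 plasmid, with a log2 fold change of -0.16 ± 0.08 for the empty vector (adjusted p = 0.147). With offsets for GC content and length, added after the data were seen, the value was -0.23 and was called lower (adjusted p = 0.0108), and with library totals alone it turned to 0.09.

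Of the laminin alpha chains, LAMA5 (ENSG00000130702, chromosome 20, 62307955 to 62367312, minus strand) rose. Its level was 550, 506 and 526 CPM in untreated libraries, 699, 704 and 589 CPM with the empty vector and 697, 655 and 586 CPM with the FOXF1 plasmid. All transfected libraries lay above the untreated ones, and the rise with the empty vector was 0.33 ± 0.07 (adjusted p = 0.00158), or 1.26-fold. The ADRM1 gene, which overlaps the 3′ end of LAMA5 on the opposite strand, fell by 0.28 on the log2 scale (SE 0.07, adjusted p = 0.00341). The counting strand is not given, so reads of the overlap could be assigned to either gene.

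LAMA1, the alpha chain of the early embryo, was measured at 19.4, 14.4 and 17.8 CPM untreated, 19.7, 19.5 and 21.5 CPM with the empty vector and 18.6, 17.9 and 13.7 CPM with the FOXF1 plasmid. The untreated and FOXF1 libraries overlapped, and the change with the empty vector was 0.24 ± 0.12 (adjusted p = 0.162). LAMA3 was counted over the whole gene, not only from the inner start with the pair of AP-1 matches shown above. It ranged from 3.46 to 5.96 CPM over the 9 libraries. Its largest log2 fold change was 0.24 ± 0.18, between the FOXF1 plasmid and untreated cells. LAMA4, the alpha chain of vessel walls and mesenchyme, ranged from 1.85 to 3.20 CPM, with a largest log2 fold change of 0.35 ± 0.23 in that comparison. Neither was called in any comparison.

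Of the gamma chains, LAMC1 (ENSG00000135862, chromosome 1, 183023460 to 183145592, plus strand) stood at 134, 135 and 137 CPM untreated, at 148, 152 and 160 CPM with the empty vector and at 149, 141 and 134 CPM with the FOXF1 plasmid. The empty vector libraries lay above the untreated libraries and the FOXF1 libraries reached down to them. The rise was 0.18 ± 0.06 (adjusted p = 0.0402), or 1.13-fold, and the call was lost in 10 of 18 settings, with adjusted p up to 0.163 (without empty vector replicate 3). LAMC3, a gamma chain of limited tissue range, was at 27.7, 27.1 and 33.4 CPM untreated, at 35.1, 34.3 and 30.6 CPM with the empty vector and at 34.9, 34.1 and 31.3 CPM with the FOXF1 plasmid. Those groups overlapped, and its change with the empty vector was 0.18 ± 0.09 (adjusted p = 0.155).

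Ratios of reads within a library are free of library scaling. LAMB3 to LAMA3 ran from 1.80 to 3.12 in untreated libraries, from 3.65 to 4.17 with the empty vector and from 3.05 to 4.02 with the FOXF1 plasmid. The empty vector libraries lay above all untreated libraries, and the lowest FOXF1 library fell inside the untreated range. LAMB2 to LAMB1 ran from 6.62 to 7.69 untreated, from 8.64 to 11.0 with the empty vector and from 9.11 to 10.5 with the FOXF1 plasmid, with no overlap between untreated and transfected libraries. Reads of LAMB2 and LAMB1 thus changed unequally within these libraries, although LAMB1 alone was not called (adjusted p = 0.147 in the edgeR test). How often pairs of any genes lack overlap was not computed. By contrast, LAMC3 to LAMC1 (0.201 to 0.244 untreated, 0.192 to 0.237 with the empty vector) and LAMA5 to LAMA1 (28.4 to 35.1 and 27.4 to 36.2) overlapped.

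Among the collagen-binding alpha subunits, which pair with ITGB1, 3 of 4 rose with the empty vector, beside 10.2% of all genes called higher. ITGA11 (ENSG00000137809, chromosome 15, 68296533 to 68432162, minus strand), a receptor for fibrillar collagen known from fibroblasts, was at 20.0, 17.7 and 19.6 CPM untreated, at 28.6, 32.5 and 29.8 CPM with the empty vector and at 34.4, 33.9 and 31.7 CPM with the FOXF1 plasmid. Untreated and transfected libraries were well apart, and the FOXF1 libraries overlapped those of the empty vector. The rise with the empty vector was 0.67 ± 0.09 (adjusted p = 1.73e-06), or 1.59-fold, and was called in all 18 settings.

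ITGA10 (ENSG00000143127, chromosome 1, 145891208 to 145910189, minus strand), the receptor of cartilage, stood at 10.3, 10.9 and 13.0 CPM untreated, at 16.6, 14.2 and 15.6 CPM with the empty vector and at 13.8, 15.8 and 16.5 CPM with the FOXF1 plasmid. Its transfected libraries all lay above the untreated ones, with a rise of 0.44 ± 0.12 (adjusted p = 0.00719), or 1.35-fold, whose adjusted p was 0.0603 without untreated replicate 1. ITGA2 (ENSG00000164171, chromosome 5, 52989326 to 53094779, plus strand), the collagen receptor of epithelium and platelets, was at 1.82, 2.67 and 1.70 CPM untreated, at 3.30, 3.24 and 3.23 CPM with the empty vector and at 2.38, 2.0 and 2.69 CPM with the FOXF1 plasmid. The FOXF1 libraries of ITGA2 overlapped the untreated ones. With the empty vector ITGA2 rose by 0.66 ± 0.22 (adjusted p = 0.0358), a call from 60 to 143 reads per library that was lost in 6 of 18 settings, with adjusted p up to 0.146 (without untreated replicate 3). ITGA1 ranged from 0.220 to 0.794 CPM and lies around PELO on the same strand, so its reads are uncertain. Its largest log2 fold change was -0.32 ± 0.48, between the FOXF1 plasmid and untreated cells.

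Among the laminin-binding alpha subunits, 1 of 3 rose with the empty vector, beside 10.2% of all genes called higher. ITGA7 (ENSG00000135424, chromosome 12, 55684568 to 55716043, minus strand), best known from muscle, was at 27.8, 26.8 and 26.1 CPM untreated, at 34.3, 31.2 and 31.0 CPM with the empty vector and at 32.3, 30.8 and 28.9 CPM with the FOXF1 plasmid. Untreated libraries lay below all others, and the rise was 0.26 ± 0.08 (adjusted p = 0.0239), or 1.20-fold. The call was lost in 5 of 18 settings, with adjusted p up to 0.0939 (without untreated replicate 3). ITGA7 overlaps METTL7B and BLOC1S1 on the opposite strand, each below 1 CPM here.

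ITGA3 (ENSG00000005884, chromosome 17, 50055968 to 50090481, plus strand), the most abundant member, was at 1015, 906 and 1013 CPM untreated, at 1132, 1052 and 1053 CPM with the empty vector and at 1144, 1206 and 1082 CPM with the FOXF1 plasmid. Its change with the empty vector was 0.14 ± 0.07 (adjusted p = 0.154). ITGA6, the alpha subunit of the hemidesmosome, was at 9.69, 11.3 and 10.9 CPM untreated, at 10.7, 12.7 and 15.1 CPM with the empty vector and at 14.2, 11.4 and 10.4 CPM with the FOXF1 plasmid, and the groups overlapped. Its change with the empty vector was 0.27 ± 0.13 (adjusted p = 0.162).

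The RGD-binding alpha subunits, which recognise a short peptide of fibronectin, vitronectin and fibrinogen, gave no call among 3 tested. With the empty vector 10.2% of all genes were called higher and 9.37% lower, so a count over 3 genes does not set them apart. ITGA5 was at 699, 628 and 606 CPM untreated, at 723, 647 and 649 CPM with the empty vector and at 710, 765 and 647 CPM with the FOXF1 plasmid, a change of 0.06 ± 0.07 with the empty vector (adjusted p = 0.602). ITGA2B, the alpha subunit of the platelet fibrinogen receptor, had nearly the same level in all groups, at 21.9, 22.6 and 22.6 CPM untreated, 22.7, 22.4 and 22.1 CPM with the empty vector and 21.7, 22.2 and 23.0 CPM with the FOXF1 plasmid. Platelet and megakaryocyte markers were near 0: GP9 and PPBP had no read, 0 of 5 markers reached a mean of 1 CPM, and their sum was 0.567 to 0.710 CPM untreated, 0.202 to 0.476 CPM with the empty vector and 0.133 to 0.471 CPM with the FOXF1 plasmid. ITGAV ranged from 5.35 to 10.8 CPM, with a largest log2 fold change of -0.28 ± 0.19 between the FOXF1 plasmid and the empty vector. ITGA4, a receptor for fibronectin and VCAM1 with no RGD binding, ranged from 1.12 to 2.04 CPM, with a largest log2 fold change of -0.33 ± 0.29 in that comparison.

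Of the beta subunits outside the leukocyte group, ITGB5 and ITGB1 rose with the empty vector and the other 3 tested were not called. Over all genes, 10.2% were called higher in that comparison. ITGB5 (ENSG00000082781, chromosome 3, 124761948 to 124901418, minus strand) was at 119, 108 and 127 CPM untreated, at 163, 156 and 154 CPM with the empty vector and at 142, 158 and 135 CPM with the FOXF1 plasmid. No transfected library reached down to an untreated library, and the rise was 0.42 ± 0.07 (adjusted p = 5.26e-05), or 1.34-fold, in all 18 settings. ITGB1 (ENSG00000150093, chromosome 10, 32900319 to 33005792, minus strand) was at 50.4, 54.9 and 58.5 CPM untreated, at 56.0, 72.5 and 72.8 CPM with the empty vector and at 67.0, 53.8 and 61.7 CPM with the FOXF1 plasmid. Empty vector replicate 1 lay inside the untreated range, and the rise of 0.30 ± 0.09 (adjusted p = 0.0164) lost its call in 4 of 18 settings: without untreated replicate 1, without empty vector replicate 2 or 3, and with the GC and length offsets, where it was 0.06 (adjusted p = 0.528). Each of these settings left the sign positive.

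ITGB4 stood at 65.0, 69.2 and 70.6 CPM untreated, at 83.6, 77.0 and 70.8 CPM with the empty vector and at 74.2, 82.1 and 79.3 CPM with the FOXF1 plasmid. The transfected libraries lay above the untreated ones by a small margin, with a change of 0.18 ± 0.07 for the empty vector (adjusted p = 0.078). ITGB8, an activator of latent TGF-beta with ITGAV, ranged from 0.454 to 1.05 CPM, with a largest log2 fold change of 0.06 ± 0.41. ITGB3, the partner of ITGA2B and ITGAV, ranged from 0.0994 to 0.551 CPM under the identifier that held reads and had 0 reads under the other, which overlaps it, so its level is uncertain. The largest log2 fold change of ITGB3 was -0.41 ± 0.57, for the empty vector against untreated cells.

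A pair of subunits named for leukocytes also rose. ITGB2 (ENSG00000160255, chromosome 21, 44885953 to 44931989, minus strand), the common beta subunit of leukocyte adhesion receptors, was at 12.4, 11.5 and 13.4 CPM untreated, at 21.2, 19.4 and 18.7 CPM with the empty vector and at 17.8, 21.4 and 18.8 CPM with the FOXF1 plasmid. ITGAX (ENSG00000140678, chromosome 16, 31355134 to 31382997, plus strand), its partner in the complement receptor of dendritic cells and macrophages, was at 5.43, 5.76 and 7.88 CPM untreated, at 11.2, 9.46 and 9.04 CPM with the empty vector and at 9.34, 8.85 and 10.1 CPM with the FOXF1 plasmid. For each gene the transfected libraries all lay above the untreated ones. The rises with the empty vector were 0.67 ± 0.10 for ITGB2 (adjusted p = 2.60e-05) and 0.64 ± 0.15 for ITGAX (adjusted p = 0.00205), and both calls held in all 18 settings.

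The ratio of ITGAX to ITGB2 reads overlapped between groups, at 0.438 to 0.589 untreated and 0.484 to 0.530 with the empty vector. Leukocyte markers were mostly at 0: 8 of 11, among them PTPRC, the pan-leukocyte marker, had no read in any library, and CD14 alone reached a mean of 1 CPM. Their summed level was 8.57 to 9.86 CPM untreated, 9.71 to 11.1 CPM with the empty vector and 10.2 to 11.6 CPM with the FOXF1 plasmid. ITGB2-AS1, on the opposite strand within ITGB2, stood at a mean of 0.667 CPM. ITGAE, the alpha subunit of lymphocytes that reside in epithelium, ranged from 5.53 to 8.84 CPM, with a largest log2 fold change of 0.21 ± 0.16 between the FOXF1 plasmid and the empty vector.

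**Figure D3:**
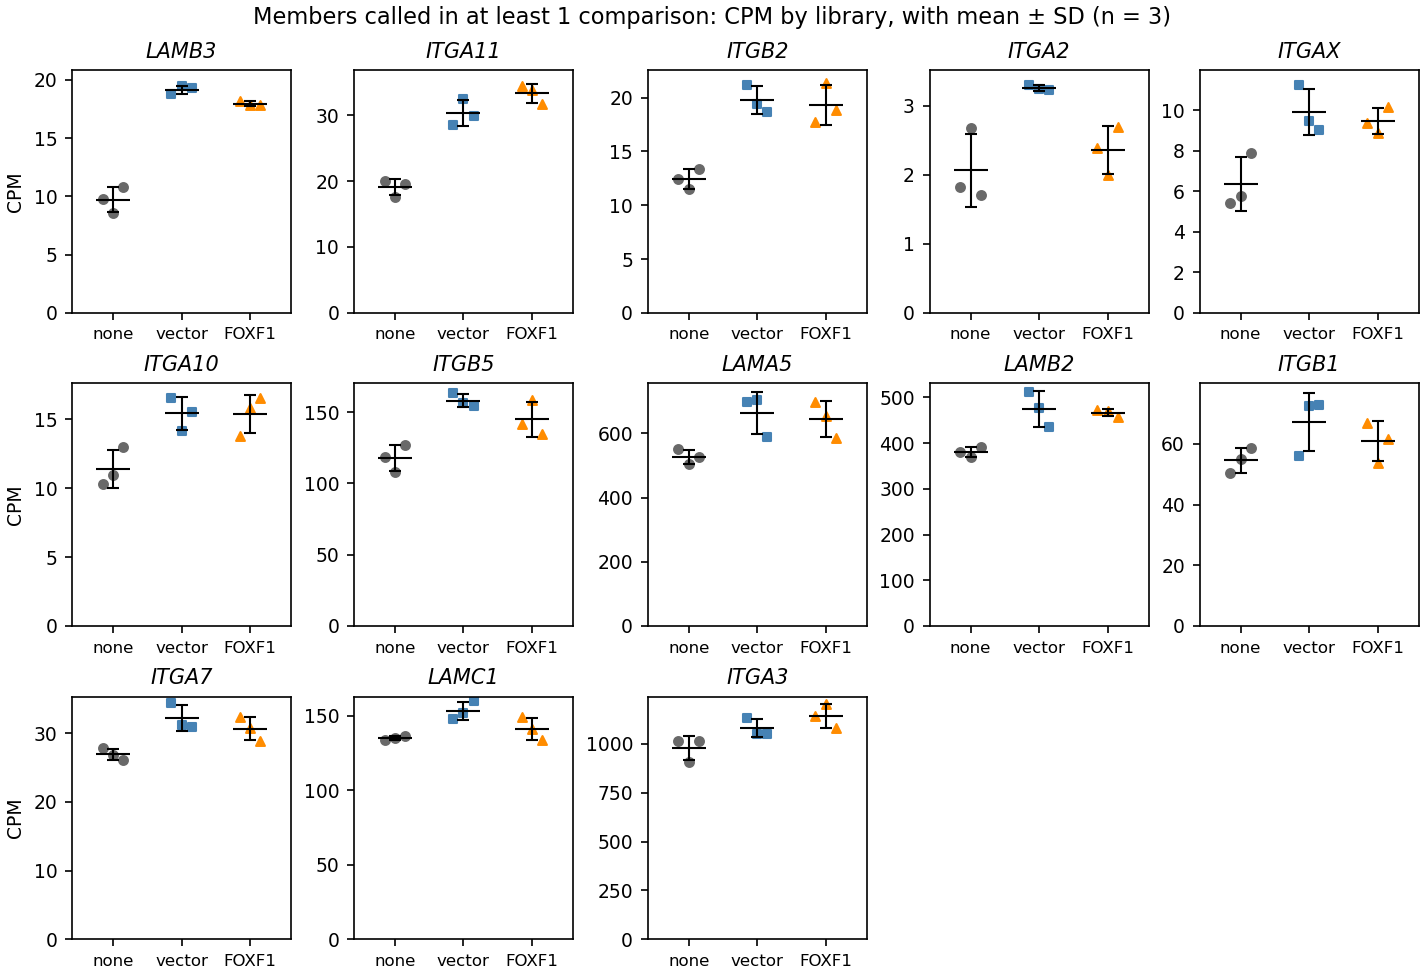
CPM of the 13 members called in at least 1 comparison, by library, with the mean and SD (n = 3) as bars; the groups are untreated (none), empty vector and FOXF1 plasmid, and each panel starts at 0. LAMB3 is at 8.60 to 10.8 CPM untreated and at 17.8 to 19.5 CPM in the 6 transfected libraries, while ITGA2 is at 2.0 to 2.69 CPM with the FOXF1 plasmid.

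To see what FOXF1 itself added, its plasmid was compared with the empty vector. None of the members was called: 0 of 28 rose and 0 of 28 fell in the edgeR quasi-likelihood test, where 0.055% of all genes were called higher and 0.0% lower. The smallest adjusted p was 0.476, for LAMA1 at -0.27 ± 0.12. At an unadjusted p below 0.05 there were 0 higher and 2 lower members, LAMA1 and ITGA2, the latter at -0.46 ± 0.22 (adjusted p = 0.521), beside 5.09% of all genes higher and 4.34% lower at that threshold. DESeq2 called 0 members, and 0 were called in every alternative setting. These results hold for FOXF1 at 3.76 to 9.12 CPM in the plasmid libraries, and the effect of a higher level was not tested. The median log2 fold change was -0.03 over the members and -0.01 over all genes. This comparison shares the empty vector libraries with the previous one, so its values are only set beside those above: LAMB3 at -0.10 ± 0.10, ITGA11 at 0.14 ± 0.08, ITGB2 at -0.03 ± 0.10, ITGAX at -0.07 ± 0.14, ITGB5 at -0.13 ± 0.07, LAMA5 at -0.04 ± 0.07, LAMB2 at -0.02 ± 0.07 and LAMC1 at -0.12 ± 0.06. Members with a mean above 10 CPM had SEs of 0.06 to 0.13 in this comparison, whereas ITGA1, ITGB3 and ITGB8 had SEs of 0.41 to 0.58, so that only much larger changes would have been detectable for them.

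Set against untreated cells, the FOXF1 plasmid libraries carry the effects of transfection and of FOXF1 together, and they share libraries with both comparisons above. Here 9 of 28 members rose and 0 fell, beside 4.63% of all genes called higher and 3.89% called lower. The median log2 fold change was 0.19 over the members and 0.02 over all genes. The 9 were ITGA3 and the following, which were also called with the empty vector: LAMB3 (0.88 ± 0.11, adjusted p = 1.28e-06), ITGA11 (0.80 ± 0.09, adjusted p = 1.76e-07), ITGB2 (0.63 ± 0.10), ITGAX (0.57 ± 0.15), ITGA10 (0.43 ± 0.12), ITGB5 (0.30 ± 0.07), LAMA5 (0.29 ± 0.07) and LAMB2 (0.29 ± 0.07). ITGA3 rose by 0.23 ± 0.07 (adjusted p = 0.036), a call that was lost in 5 of 18 settings: with RLE factors, without untreated replicate 1 or 2, and without FOXF1 plasmid replicate 1 or 2. Its difference from the empty vector was 0.08 ± 0.07 (adjusted p = 0.746). ITGA2, ITGA7, ITGB1 and LAMC1, called with the empty vector, were not called here, at 0.19 ± 0.23, 0.19 ± 0.08, 0.16 ± 0.09 and 0.06 ± 0.06. Calls of ITGA11, ITGB2, LAMB2 and LAMB3 held in all 18 settings. Those of ITGA10, ITGAX, LAMA5 and ITGB5 were lost in 4, 3, 3 and 2 settings, each of which left out an untreated or a FOXF1 library, with adjusted p up to 0.116 (ITGA10).

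**Figure D4:**
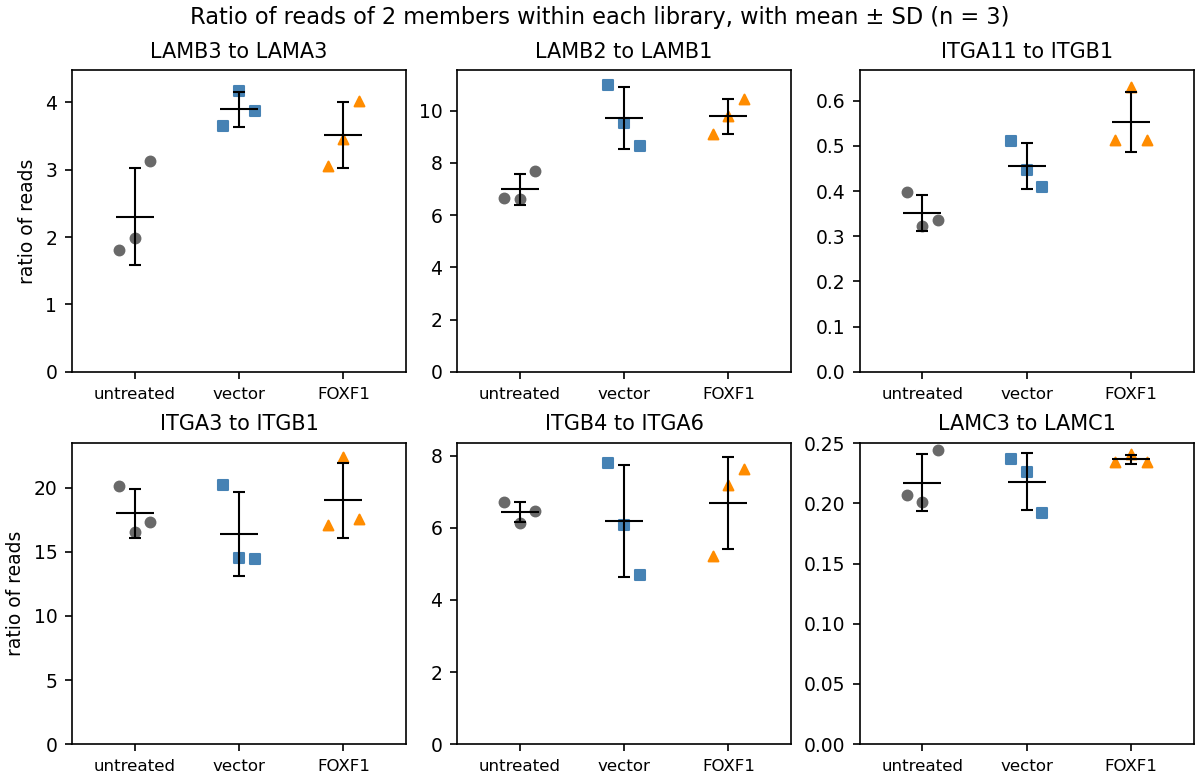
Ratio of the reads of 2 members within each library, with the mean and SD (n = 3), for 6 pairs; each axis starts at 0 and needs no library scaling. LAMB3 to LAMA3, LAMB2 to LAMB1 and ITGA11 to ITGB1 are higher in the empty vector libraries than in any untreated library, while the other 3 pairs overlap. The pairs not drawn also overlap: LAMA5 to LAMA1, ITGAX to ITGB2, ITGA5 to ITGB1, ITGB5 to ITGAV and ITGB5 to ITGB1.

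ITGA11 to ITGB1 reads ran from 0.322 to 0.397 untreated, from 0.410 to 0.510 with the empty vector and from 0.514 to 0.629 with the FOXF1 plasmid, so the 3 groups did not overlap. This alpha subunit thus gained on its partner within the libraries. ITGA3 to ITGB1 (16.5 to 20.1 untreated, 14.5 to 20.2 with the empty vector) and ITGB4 to ITGA6 (6.14 to 6.71 and 4.69 to 7.79) overlapped. So did ITGA5 to ITGB1 (10.4 to 13.9 and 8.91 to 12.9), ITGB5 to ITGAV (12.6 to 19.4 and 14.3 to 29.3) and ITGB5 to ITGB1 (1.97 to 2.36 and 2.12 to 2.92). The share of pairs without overlap over all genes was not computed.

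Genes that work with integrins and laminins were read from 4 lists. Over all genes tested, 10.2% were called higher and 9.37% lower with the empty vector. Of 26 adaptors and actin linkers, 2 rose and 7 fell with the empty vector (median -0.15). The largest rise among the called genes was that of CRK, a signalling adaptor, at 0.65 ± 0.11 (adjusted p = 5.31e-05), from 19.7 ± 1.78 to 30.8 ± 5.98 CPM (SD, n = 3). The largest fall among the called genes was that of ZYX, zyxin of focal adhesions, at -0.54 ± 0.08 (adjusted p = 7.59e-06), from 476 ± 27.5 to 327 ± 35.5 CPM. More of these adaptors were thus called lower than higher, with the rises near the share over all genes, while the members were called higher only.

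Of 17 tested hemidesmosome and basement membrane partners, 7 rose and 2 fell (median 0.17). Among the called genes, COL4A6, a collagen IV chain, had the largest rise at 0.58 ± 0.08 (adjusted p = 4.74e-06), from 28.8 ± 0.756 to 43.1 ± 3.92 CPM, and DST, which links ITGB4 to keratin in epithelium, had the largest fall at -0.75 ± 0.20 (adjusted p = 0.0075), from 7.49 ± 2.20 to 4.46 ± 0.963 CPM. COL17A1, the hemidesmosomal collagen that binds ITGB4, was not tested, with 64 reads in all. Of 12 tested ligands of integrins other than laminin, 3 rose and 1 fell (median 0.03). EDIL3, a ligand of ITGAV integrins, rose by 0.67 ± 0.13 (adjusted p = 0.000268), and TGFB1, whose latent form binds ITGAV integrins, fell by 0.32 on the log2 scale (SE 0.07, adjusted p = 0.0015).

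Of 8 other laminin receptors, 1 rose and 1 fell (median 0.06), near the shares over all genes. SDC4, a syndecan of focal adhesions, rose by 0.50 ± 0.07 (adjusted p = 1.65e-06), and UTRN, utrophin of the dystroglycan complex, fell by 0.70 on the log2 scale (SE 0.16, adjusted p = 0.00258). With the FOXF1 plasmid against the empty vector, 0 genes of the 4 lists were called in either direction. In that comparison 0.055% of all genes were called higher and 0.0% lower. Against untreated cells, the FOXF1 plasmid gave 1 rise and 4 falls among adaptors, 4 and 2 among basement membrane partners, 1 and 0 among other ligands, and 1 and 1 among other laminin receptors. Among all genes tested, 4.63% were called higher and 3.89% lower against untreated cells.

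Markers of other cells that carry these receptors were low, apart from TWIST2 of the fibroblast list. Of 7 endothelial markers 0 reached a mean of 1 CPM, with sums of 0.482 to 0.853 CPM untreated, 0.807 to 1.19 CPM with the empty vector and 0.745 to 1.17 CPM with the FOXF1 plasmid. The muscle markers reached 1 CPM in 0 of 6 cases, with sums of at most 0.398 CPM in any library. Of 7 fibroblast markers TWIST2 alone reached 1 CPM, COL1A2 and LUM had no read, and the sums were 36.7 to 43.0 CPM untreated, 26.6 to 32.1 CPM with the empty vector and 32.4 to 38.9 CPM with the FOXF1 plasmid. TWIST2 made up nearly all of the fibroblast sum. Its mean was 39.1 CPM untreated, 29.3 CPM with the empty vector and 34.9 CPM with the FOXF1 plasmid. Each other fibroblast marker had a mean of at most 0.126 CPM in any group. TWIST2 thus had a lower mean with the empty vector, at a level above the floor. Its change is given as group means only, and its part in the changes of the members was not tested.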

How the data were processed

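RNA sequencing gave 9 libraries, 3 per group. The authors deposited unnormalised counts of reads for each gene. Software named in the submitters' processing notes is bcl2fastq, STAR 2.5.2b and HTSeq, on build GRCh38. Per the labels' protocols, the kit selects mRNA and keeps strand. For the strand setting of the counting and the annotation release, the entry is: not given in the sources used here. Coordinates, exon lengths and GC content are from GENCODE release 29, which holds 56591 of 64253 identifiers.

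Counts were tested with edgeR 4.0.16 in R 4.3.3: filterByExpr (minimum count 10, 16366 genes kept), TMM factors, a quasi-likelihood F test on all 9 libraries with 6 residual degrees of freedom, and Benjamini-Hochberg adjustment, called at an adjusted p below 0.05. The common biological coefficient of variation was 0.101. SEs are approximate, taken as the size of the log2 fold change over the root of its F statistic. CPM levels use TMM-scaled library sizes. The test was tried on simulated counts beforehand. Replicates differed by more than sampling noise (chi-square per degree of freedom 8.88 to 24.1), and p-values reflect only the spread among the 9.

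Alternatives were DESeq2 1.42.0, other scalings and filters, a fit of the compared groups only, a replicate block and each library left out. Offsets for GC content and length were added after the data were seen. Members and lists were chosen with earlier results of these data known. Members were named with every library's value if called in a comparison or at a mean of at least 10 CPM, and others by range; list genes were named for the largest rise and fall. Markers at 0 or needed as a check were also named.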

Additional observations from a re-analysis of the deposited data

How the results depend on the processing

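The 18 alternative settings changed no sign among called members. Of the members not called, 8 gained a call in some setting with the empty vector against untreated cells. With the FOXF1 plasmid, 6 gained one against untreated cells and 0 against the empty vector. ITGB4 gained a call in 4 settings in both comparisons against untreated cells. Signs changed in some setting for 6 uncalled members with the empty vector. They changed for 17 with the FOXF1 plasmid against the empty vector and for 6 against untreated cells. Among the uncalled members, ITGA2B turned positive with library totals and was called there, with a log2 fold change of 0.24 for the empty vector. With the empty vector against untreated cells, 7 of 12 calls held in all 18 settings, and the number called higher was 19 with library totals (35.0% of all genes), 15 with library totals without mitochondrial genes (14.9%) and 7 to 12 with a library left out, the lowest without untreated replicate 1 (6.13%), beside 10.2% of all genes in the reported fit. With the FOXF1 plasmid against untreated cells, 4 of 9 calls held in all 18, and the number called higher was 14 with library totals (14.2% of all genes), 10 with library totals without mitochondrial genes (5.24%) and 4 to 10 with a library left out, the lowest being 4 without untreated replicate 2 (2.63%) and 5 without FOXF1 plasmid replicate 2 (2.79%), beside 4.63% in the reported fit. With GC and length offsets, 1 member, LAMB1, was called lower in each of these comparisons (0 otherwise), beside 14.7% and 9.35% of all genes. The FOXF1 plasmid against the empty vector gave 0 calls in every setting. The cause of these shifts was not tested. The replicate block gave 12, 0 and 9 members called higher in the 3 comparisons. The numbers share no origin in the labels, and same-numbered libraries did not deviate together (correlations of -0.09 to 0.08, 0 of 9 over 0.1). Depth limits ITGA1, ITGB3 and ITGB8, whose libraries held 4 to 39 reads.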
